A study of Homo sapiens with 15 samples.

Results

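POLRMT, TFAM, TFB1M, TFB2M, TEFM, MTERF1, LRPPRC, SLIRP, PNPT1 and SUPV3L1 are nuclear genes whose products enter mitochondria to transcribe the mitochondrial genome or to process, stabilise and degrade its RNA. The set is defined by name and function. All 10 were found by Ensembl ID among the 62754 gene IDs of the count table, and all 10 passed the filter on low counts that left 19781 genes. The RNA came from the established line NCI-H69, labelled as classic small cell lung carcinoma, treated with FB23-2, CS2 or, as control, the solvent DMSO (3 libraries each). The series names both compounds as inhibitors of FTO, which demethylates m6A in RNA, and asks which transcripts change with them. Another name of CS2 is brequinar, which blocks DHODH, a mitochondrial enzyme of pyrimidine synthesis. Neither dose nor duration of treatment is known here, so whether the compounds were matched for either is unknown. The 6 H82 samples of the series were not analysed here.

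The mitochondrial genome is transcribed from both strands as long precursors by a dedicated polymerase, POLRMT. TFAM packages mitochondrial DNA and bends the promoter, TFB2M melts it, TEFM makes the polymerase processive, and MTERF1 binds a site downstream of the ribosomal RNA genes. TFB1M, a relative of TFB2M, methylates the small mitochondrial ribosomal RNA. LRPPRC and SLIRP form a complex that binds mitochondrial mRNAs and protects them from decay, and the ribonuclease PNPT1 and the helicase SUPV3L1 together degrade mitochondrial RNA. In libraries of whole cultures a lower count cannot tell fewer transcripts per cell from fewer cells that carry them.

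Promoter sequences are shown for POLRMT, TFB1M and TFAM, which share a motif but differ in response, and for the complex partners LRPPRC and SLIRP, which moved apart. Each is a window of 300 bases, read 5′ to 3′ across the transcription start, from the RefSeq table on GRCh38.p14. All 10 genes had an entry in the promoter table, and SLIRP had 2, of which the first is used. Capitals mark matches, on either strand, to the motifs of NRF1 (matched as GCGCATGCGC in POLRMT), of the ETS family that includes GABPA (CCGGAAGT), of YY1 (AANATGGCG) and of the C/EBP-ATF response element (TGATGNAA). The NRF1 motif searched allowed any base in place of the A of that POLRMT match. N stands for any base.
POLRMT promoter, chr19:633488-633787, minus strand: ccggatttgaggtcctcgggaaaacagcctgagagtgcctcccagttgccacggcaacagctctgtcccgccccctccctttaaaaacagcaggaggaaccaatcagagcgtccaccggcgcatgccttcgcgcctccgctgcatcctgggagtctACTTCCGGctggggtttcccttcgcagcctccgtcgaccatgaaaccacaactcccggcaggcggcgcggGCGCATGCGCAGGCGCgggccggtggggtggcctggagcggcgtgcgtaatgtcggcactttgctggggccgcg
TFB1M promoter, chr6:155314435-155314734, minus strand: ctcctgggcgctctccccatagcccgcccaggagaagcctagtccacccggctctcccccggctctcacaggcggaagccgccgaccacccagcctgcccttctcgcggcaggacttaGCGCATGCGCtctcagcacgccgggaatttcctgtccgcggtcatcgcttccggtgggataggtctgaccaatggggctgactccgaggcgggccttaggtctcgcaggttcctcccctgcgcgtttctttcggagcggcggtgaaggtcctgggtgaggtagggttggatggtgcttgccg
TFAM promoter, chr10:58385160-58385459, plus strand: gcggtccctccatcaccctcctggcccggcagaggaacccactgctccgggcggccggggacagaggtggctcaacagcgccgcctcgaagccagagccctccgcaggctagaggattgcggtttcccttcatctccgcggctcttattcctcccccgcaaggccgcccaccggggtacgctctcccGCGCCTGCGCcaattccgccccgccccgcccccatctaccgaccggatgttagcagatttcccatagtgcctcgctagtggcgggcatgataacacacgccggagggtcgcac
LRPPRC promoter, chr2:43995940-43996239, minus strand: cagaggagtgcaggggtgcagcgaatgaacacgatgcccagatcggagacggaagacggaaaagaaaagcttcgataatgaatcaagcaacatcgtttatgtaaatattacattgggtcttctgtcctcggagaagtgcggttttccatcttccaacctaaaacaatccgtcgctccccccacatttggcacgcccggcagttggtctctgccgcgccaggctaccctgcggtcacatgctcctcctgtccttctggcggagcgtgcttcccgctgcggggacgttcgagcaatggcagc
SLIRP promoter, chr14:77707853-77708152, plus strand: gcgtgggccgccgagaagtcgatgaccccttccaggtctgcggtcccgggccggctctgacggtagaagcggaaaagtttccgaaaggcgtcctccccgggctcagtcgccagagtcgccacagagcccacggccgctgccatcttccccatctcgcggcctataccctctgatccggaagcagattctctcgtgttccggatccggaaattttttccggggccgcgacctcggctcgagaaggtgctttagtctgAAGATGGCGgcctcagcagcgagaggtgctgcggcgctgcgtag

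The NRF1 motif was found in 3 of the 10 promoters, POLRMT, TFB1M and TFAM, and in 6.28% of the 27305 promoters searched, 1 per gene. In POLRMT 2 overlapping matches start 24 and 18 bases before the start, in TFAM 1 match starts 63 bases before it, and in TFB1M 1 match starts 132 bases before it. The ETS motif was found in 3 promoters, POLRMT, TEFM and MTERF1, and in 4.44% of all. The YY1 motif was found in SLIRP alone of the 10, over the first bases of the transcript, and in 3.37% of all promoters. The C/EBP-ATF element was found in 0 of the 10 and in 3.67% of all. The windows of LRPPRC, TFB2M, PNPT1 and SUPV3L1 held 0 matches to these letters. A match is only a run of letters, and no binding was measured.

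Library totals ranged from 29916267 to 45022633 counts, and 3 counts corresponded to between 0.0666 and 0.1 CPM (counts scaled to library size, with TMM factors where a gene's level is given). The lowest count of any of the 10 genes in a library was 275, for TFB1M with CS2. Genes of the mitochondrial genome took 6.83% to 11% of counts with FB23-2, 7.3% to 9.05% with CS2 and 5.18% to 5.69% with DMSO. The 11% belongs to FB23-2 replicate 2, and the other FB23-2 libraries had at most 6.91%. Some FB23-2 results are therefore also given without that library, and the rest use every library. Of the neuroendocrine markers, the granule protein CHGA had 404 to 430 CPM with FB23-2, 500 to 508 with CS2 and 582 to 624 with DMSO. The transcription factor INSM1 had 574 to 636 CPM with FB23-2, 670 to 746 with CS2 and 798 to 949 with DMSO. The adhesion molecule NCAM1 had 622 to 760 CPM with FB23-2, 299 to 307 with CS2 and 518 to 565 with DMSO. SYP, a synaptic vesicle protein, lay between 77.4 and 141 CPM in all libraries, so these markers of the labelled cell type were present throughout. Of 5 fibroblast markers, DCN had 0 counts in every library, and the list summed to 10.5 to 15.3 CPM with FB23-2, 33.1 to 39.6 with CS2 and 52.7 to 54.4 with DMSO, nearly all of it COL1A2. Blood cell, endothelial and non-neuroendocrine tumour cell markers summed to at most 2.46 CPM in any library. The part of these markers in the results below was not tested.

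**Figure D1:**
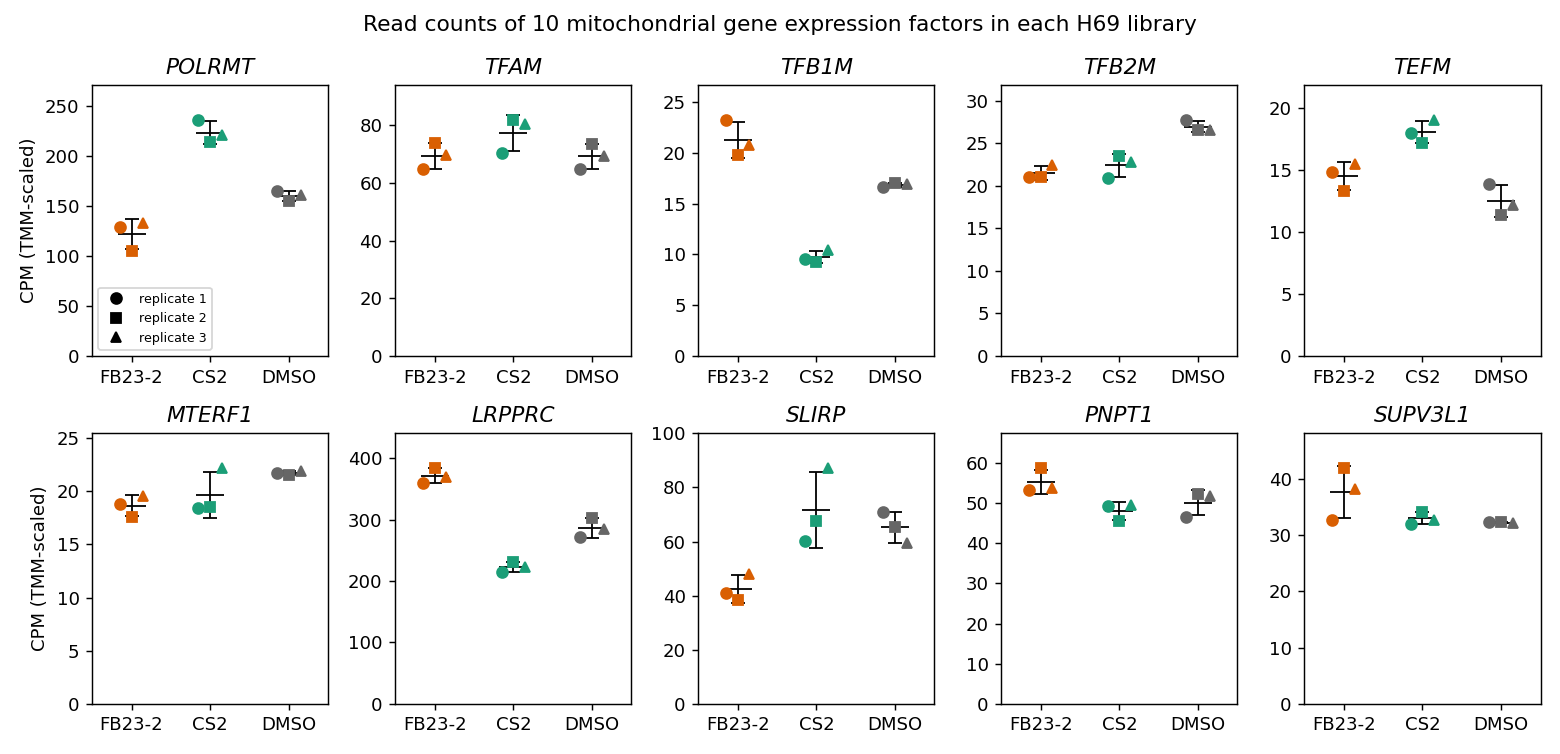
TMM-scaled CPM (vertical axis, from 0) of the 10 genes in each library of the FB23-2, CS2 and DMSO groups, with mean and SD (n = 3) as bars. LRPPRC and TFB1M are highest with FB23-2 and lowest with CS2, and POLRMT runs the other way, with 105 to 133 CPM with FB23-2 and 214 to 236 with CS2.

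Levels of different genes are compared per kb of exon, that is CPM divided by the merged length of all annotated exons. With DMSO, POLRMT stood highest at 31.3 ± 1.0 CPM per kb (SD, n = 3), next to LRPPRC at 29.3 ± 1.7, and these neighbours overlapped between libraries. SLIRP followed at 24.8 ± 2.1, then TFB2M at 14.6 ± 0.38, TFAM at 12.3 ± 0.75 and PNPT1 at 9.77 ± 0.62 CPM per kb. SUPV3L1 (7.54 ± 0.016), TFB1M (6.15 ± 0.075), MTERF1 (4.44 ± 0.033) and TEFM (3.89 ± 0.39) were the lowest. No neighbours other than POLRMT and LRPPRC overlapped in the DMSO libraries. The top of this order differed between the groups. With FB23-2 it read LRPPRC (38.1 ± 1.2), POLRMT (23.9 ± 2.9) and SLIRP (16.1 ± 1.9 CPM per kb). With CS2 it read POLRMT (43.6 ± 2.2), SLIRP (27.2 ± 5.3) and LRPPRC (22.8 ± 0.86 CPM per kb), the last pair overlapping. Merged exons include rarely used ones, so the order rests on the annotation as well as on the counts.

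**Figure D2:**
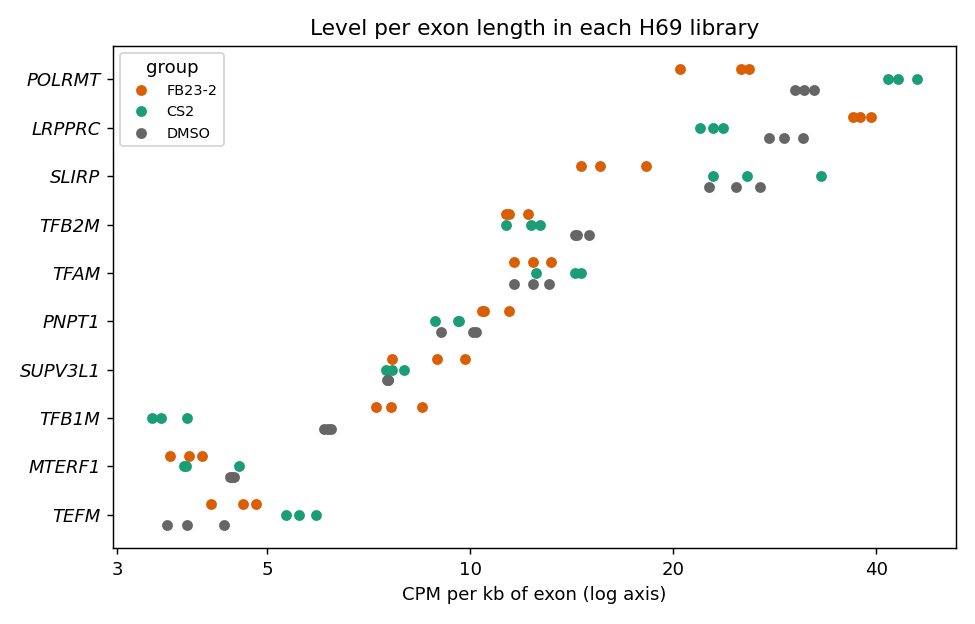
CPM per kb of exon on a log axis, 1 point per library, with genes ordered by their DMSO mean. POLRMT and LRPPRC exchange places between FB23-2 (23.9 and 38.1 CPM per kb) and CS2 (43.6 and 22.8).

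The first comparison set CS2 against DMSO. Under CS2, POLRMT and TEFM, the polymerase and its elongation factor, rose, while TFB1M, LRPPRC and TFB2M fell. Thus 5 of 10 genes passed an adjusted p of 0.05 (edgeR's quasi-likelihood test, Benjamini-Hochberg adjustment over all genes tested), 2 higher and 3 lower, against 49.7% of all genes (24.3% higher and 25.3% lower). The CS2 and DMSO libraries of the same 5 genes did not overlap, against 60.6% of all genes. The median log2 fold change was -0.01 over the 10 genes and 0 over all genes, and the median size was 0.21 against 0.41. The share called among the 10 genes is thus that of the background.

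The next comparison asked the same for FB23-2 against DMSO. With FB23-2, LRPPRC and TFB1M rose, while SLIRP, POLRMT and TFB2M fell. Again 5 of 10 genes passed, 2 higher and 3 lower, against 52% of all genes (25.4% higher and 26.7% lower). Libraries did not overlap for 8 of the 10 genes, against 59.8% of all genes. The median log2 fold change was 0.07 over the 10 genes and 0 over all, and the median size 0.28 against 0.42.

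Set directly against each other, FB23-2 and CS2 differed for 6 of 10 genes, against 59.6% of all genes. LRPPRC, TFB1M and PNPT1 were higher with FB23-2 (29.7% of all genes were) and POLRMT, SLIRP and TEFM were lower (30% of all genes were). Libraries did not overlap for these 6 genes, against 62.9% of all genes. The median log2 fold change was -0.07 over the 10 genes and 0.01 over all, and the median size 0.26 against 0.52. The 2 comparisons with DMSO share their control libraries, so their values are given side by side for each gene and the direct comparison carries the test of the difference.

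**Figure D3:**
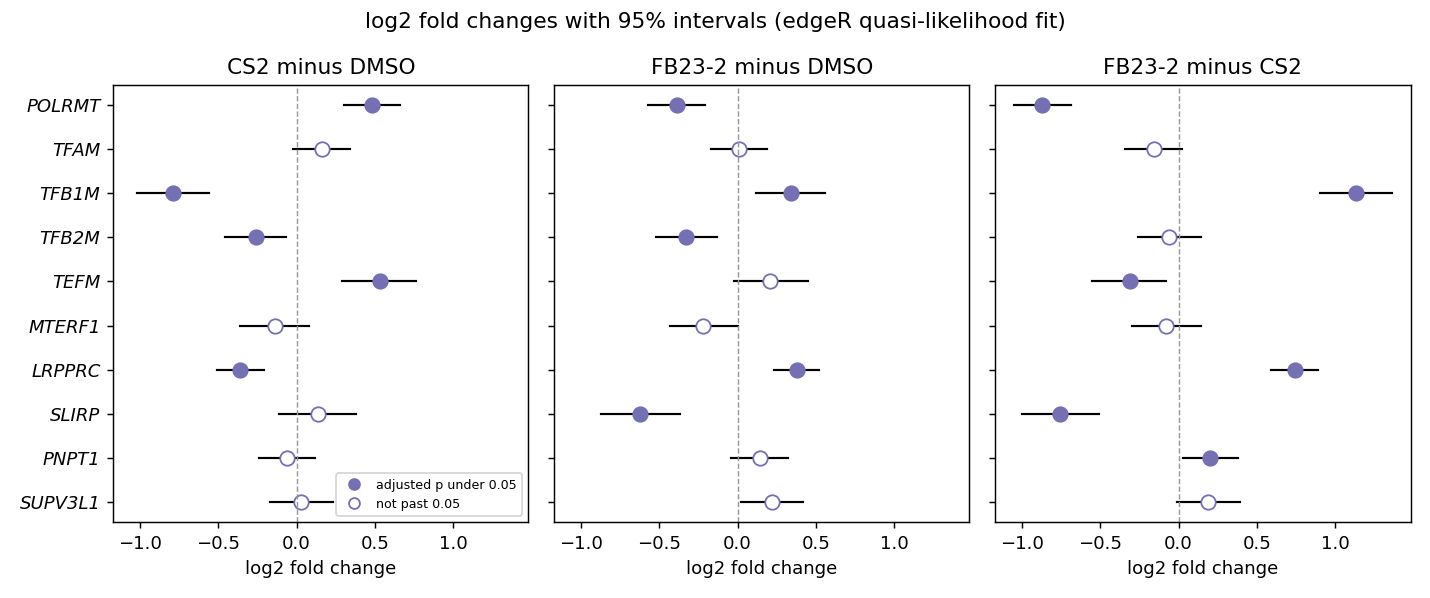
log2 fold changes (points) with 95% intervals (lines) of the 10 genes in the 3 comparisons, filled where the adjusted p was under 0.05. TFB1M (-0.79, 0.34 and 1.13) and POLRMT (0.48, -0.39 and -0.87) lie on opposite sides of 0 in each panel.

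POLRMT (ENSG00000099821, chromosome 19, 617224 to 633604, minus strand, GRCh38), the mitochondrial RNA polymerase, had 129, 105 and 133 CPM with FB23-2, 236, 214 and 221 with CS2 and 165, 155 and 161 with DMSO. Every CS2 library lay above and every FB23-2 library below all DMSO libraries, with FB23-2 replicate 2 the lowest of all 9. The log2 fold change was 0.48 ± 0.08 (SE) with CS2 (adjusted p = 9.66e-05) and -0.39 ± 0.08 with FB23-2 (adjusted p = 6.74e-04). FB23-2 minus CS2 gave -0.87 ± 0.08 (adjusted p = 3.85e-08). Without FB23-2 replicate 2 the change against DMSO was -0.29 and that against CS2 -0.77, both still past the threshold. POLRMT is the most GC-rich of the 10 genes, at 65.1% over its transcripts where the others range from 38.7% to 47.6%. After a correction of each library for gene GC content and genomic span, the fall with FB23-2 was lost at -0.13 (adjusted p = 0.0877), and the other values shrank to 0.23 with CS2 and -0.36 between the compounds. A share of 22.2% of its 50-base windows recurs in other genes, mostly the pseudogene POLRMTP1, which held 2.01 to 5.42 CPM.

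TFAM (ENSG00000108064, chromosome 10, 58385022 to 58399221, plus strand), the packaging factor of mitochondrial DNA, had 65, 74 and 69.6 CPM with FB23-2, 70.3, 81.8 and 80.4 with CS2 and 65, 73.4 and 69.3 with DMSO. The 3 groups overlapped. Changes of 0.16 ± 0.09 with CS2 (95% interval -0.02 to 0.34), 0.01 ± 0.09 with FB23-2 (-0.17 to 0.19) and -0.16 ± 0.09 between the compounds (-0.34 to 0.02) did not pass. The change with CS2 passed without CS2 replicate 1 (0.23, adjusted p = 0.0435). That between the compounds passed without CS2 replicate 1 (-0.23) or FB23-2 replicate 2 (-0.20). After the GC and span correction, TFAM was lower with FB23-2, by -0.19 against DMSO (adjusted p = 0.0181) and by -0.31 against CS2 (adjusted p = 3.05e-04).

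TFB2M (ENSG00000162851, chromosome 1, 246540560 to 246566324, minus strand), the factor that opens the mitochondrial promoters, had 21, 21 and 22.5 CPM with FB23-2, 20.9, 23.5 and 22.8 with CS2 and 27.7, 26.6 and 26.5 with DMSO. All 6 treated libraries lay below all DMSO libraries. The log2 fold change was -0.33 ± 0.09 with FB23-2 (adjusted p = 0.00644) and -0.26 ± 0.09 with CS2 (adjusted p = 0.0243). Between the compounds it was -0.06 ± 0.09 (95% interval -0.26 to 0.14), which did not pass. After the GC and span correction the value with FB23-2 was -0.52 (adjusted p = 5.05e-05) and that between the compounds -0.18 (adjusted p = 0.0802). The CS2 call was lost without any single DMSO library, CS2 replicate 1 or CS2 replicate 3 (log2 fold changes of -0.28 to -0.21, adjusted p = 0.0505 to 0.108).

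TEFM (ENSG00000172171, chromosome 17, 30897336 to 30906820, minus strand), the elongation factor, had 14.8, 13.3 and 15.5 CPM with FB23-2, 18, 17.2 and 19 with CS2 and 13.9, 11.4 and 12.2 with DMSO. The CS2 libraries stood above all others, and those with FB23-2 overlapped those with DMSO. It rose with CS2 by 0.53 ± 0.11 (adjusted p = 6.81e-04), while 0.21 ± 0.11 with FB23-2 (95% interval -0.02 to 0.45) did not pass. FB23-2 minus CS2 gave -0.31 ± 0.11 (adjusted p = 0.0219). That call was lost without CS2 replicate 3 (-0.27) or FB23-2 replicate 2 (-0.25), and without FB23-2 replicate 2 the change with FB23-2 against DMSO passed at 0.28 (adjusted p = 0.0452). After the GC and span correction that change was 0.08 (adjusted p = 0.572). Of its exon bases 26.1% overlap other genes, all on the opposite strand, and the strand setting of the counting is not given in the sources used here.

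MTERF1 (ENSG00000127989, chromosome 7, 91692008 to 91880720, minus strand), which binds downstream of the ribosomal RNA genes, had 18.8, 17.6 and 19.6 CPM with FB23-2, 18.4, 18.5 and 22.2 with CS2 and 21.7, 21.5 and 21.9 with DMSO. FB23-2 libraries lay below the DMSO libraries, while CS2 replicate 3 lay above them and the other CS2 libraries below. None of the comparisons passed, at -0.22 ± 0.10 with FB23-2 (adjusted p = 0.0821), -0.14 ± 0.10 with CS2 (adjusted p = 0.276) and -0.08 ± 0.10 between the compounds (adjusted p = 0.531). At 188.7 kb it has the longest span of the 10 genes. After the GC and span correction it was lower with FB23-2, at -0.31 against DMSO and -0.57 against CS2 (adjusted p = 1.69e-04), and its value with CS2 turned to 0.26 (adjusted p = 0.0506, and 0.0278 with the replicate block added).

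TFB1M (ENSG00000029639, chromosome 6, 155257509 to 155314493, minus strand), the methyltransferase of the small mitochondrial ribosomal RNA, showed the largest difference between the compounds among the 10 genes. It had 23.2, 19.8 and 20.8 CPM with FB23-2, 9.52, 9.22 and 10.4 with CS2 and 16.6, 17 and 16.9 with DMSO. The 3 groups were fully separate. Its log2 value fell with CS2 by 0.79 (± 0.11, adjusted p = 5.72e-06) and rose with FB23-2 by 0.34 ± 0.10 (adjusted p = 0.0103). FB23-2 minus CS2 gave 1.13 ± 0.11 (adjusted p = 3.05e-08), a 2.19-fold difference. After the GC and span correction the rise with FB23-2 was lost (0.21, adjusted p = 0.089), and the other values were -0.81 and 1.02. Of its exon bases 7.9% overlap TIAM2 on the opposite strand, which held 5.68 to 13.6 CPM, and without strand the reads of these 2 genes cannot be told apart there.

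LRPPRC (ENSG00000138095, chromosome 2, 43886508 to 43996005, minus strand), the large RNA-binding partner of the mRNA-stabilising complex, had 360, 384 and 370 CPM with FB23-2, 214, 231 and 223 with CS2 and 271, 303 and 285 with DMSO. The 3 groups did not overlap. It rose with FB23-2 by 0.38 ± 0.07 (adjusted p = 1.70e-04) and fell with CS2 by 0.36 (± 0.07, adjusted p = 2.80e-04). FB23-2 minus CS2 gave 0.74 ± 0.07 (adjusted p = 3.06e-08), or 1.67-fold. All 3 calls held under every alternative run, with smaller values after the GC and span correction (0.24, -0.20 and 0.44).

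SLIRP (ENSG00000119705, chromosome 14, 77708071 to 77761104, plus strand), the small partner of LRPPRC, had 41, 38.3 and 48 CPM with FB23-2, 60.2, 67.5 and 87.2 with CS2 and 70.8, 65.4 and 59.5 with DMSO. FB23-2 libraries lay below all others, and CS2 replicate 3 was the highest of the 9. SLIRP fell with FB23-2 by 0.62 (± 0.12, adjusted p = 2.18e-04), and FB23-2 minus CS2 gave -0.76 ± 0.12 (adjusted p = 1.89e-05). Against DMSO the CS2 value of 0.14 ± 0.12 (95% interval -0.11 to 0.38) did not pass, and it was -0.02 without CS2 replicate 3. Of its exon bases 14.9% overlap C14orf178 or SNW1. SNW1, on the opposite strand, held 132 to 182 CPM, and without strand its reads cannot be told apart from those of SLIRP where they overlap.

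Within a library, the ratio of LRPPRC to SLIRP counts does not depend on how libraries are scaled. On the log2 scale it was 3.13, 3.33 and 2.95 with FB23-2, 1.83, 1.77 and 1.36 with CS2 and 1.94, 2.21 and 2.26 with DMSO. The 3 groups did not overlap. The ratio was 1.0 higher on the log2 scale with FB23-2 than with DMSO, a 2-fold difference, and 0.48 lower with CS2 than with DMSO. Each gave p = 0.1 in a two-sided exact permutation test, the smallest that 3 against 3 libraries allow (adjusted p = 0.2 over 6 ratio tests). Between FB23-2 and CS2 the ratio differed by 1.48, with the same exact permutation p = 0.1.

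PNPT1 (ENSG00000138035, chromosome 2, 55634265 to 55693910, minus strand), the mitochondrial polynucleotide phosphorylase, had 53.4, 58.8 and 53.9 CPM with FB23-2, 49.2, 45.5 and 49.5 with CS2 and 46.5, 52.3 and 51.7 with DMSO. CS2 and DMSO libraries overlapped, and all FB23-2 libraries were higher. Changes of 0.14 ± 0.09 with FB23-2 (95% interval -0.04 to 0.32) and -0.06 ± 0.09 with CS2 (-0.24 to 0.12) did not pass. FB23-2 minus CS2 passed narrowly at 0.20 ± 0.09 (adjusted p = 0.0463). That call was lost without DMSO replicate 2 or 3, any single CS2 library or FB23-2 replicate 2 (0.16 to 0.23), and its direction turned with the GC and span correction (-0.04).

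SUPV3L1 (ENSG00000156502, chromosome 10, 69180232 to 69209099, plus strand), the helicase that works with PNPT1, had 32.8, 42 and 38.3 CPM with FB23-2, 32.1, 34.2 and 32.8 with CS2 and 32.3, 32.3 and 32.2 with DMSO. FB23-2 libraries were higher than those with DMSO but by little in replicate 1. The FB23-2 value of 0.22 ± 0.10 (adjusted p = 0.0565, 95% interval 0.02 to 0.42) lay just outside the threshold. It passed without FB23-2 replicate 1 (0.33) and was 0.14 without FB23-2 replicate 2 and 0.11 (adjusted p = 0.295) after the GC and span correction. CS2 gave 0.03 ± 0.10 (-0.17 to 0.23), and FB23-2 minus CS2 gave 0.19 ± 0.10 (-0.01 to 0.39), which without FB23-2 replicate 1 passed at 0.29 (adjusted p = 0.0148) and without FB23-2 replicate 2 was 0.11. The log2 ratio of PNPT1 to SUPV3L1 counts was 0.70, 0.48 and 0.49 with FB23-2, 0.62, 0.41 and 0.59 with CS2 and 0.52, 0.69 and 0.68 with DMSO. It overlapped between all groups (two-sided exact permutation p = 0.4 with either compound against DMSO and p = 1 between them).

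**Figure D4:**
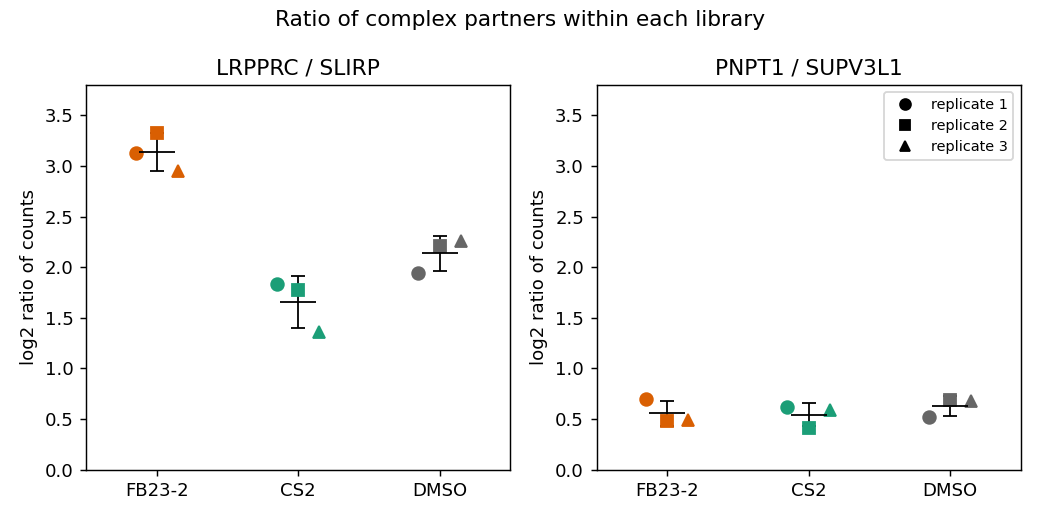
log2 ratio of counts of complex partners in each library of the FB23-2, CS2 and DMSO groups, with mean and SD (n = 3) as bars. LRPPRC to SLIRP averages 3.14 with FB23-2, 1.65 with CS2 and 2.14 with DMSO without overlap, whereas PNPT1 to SUPV3L1 averages 0.56, 0.54 and 0.63 and overlaps.

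Other genes of the pathway were read from lists chosen with earlier results of these data known. Of 44 genes of mitochondrial RNA processing, modification and turnover, 12 rose and 10 fell with CS2 (median log2 fold change 0.04), and 10 rose and 14 fell with FB23-2 (median -0.05). These shares of 50% and 54.5% lie near the 49.7% and 52% of all genes. Leaving out FB23-2 replicate 2 gave 10 higher and 11 lower with FB23-2 (median 0.01). With CS2, PTCD1, a pentatricopeptide repeat protein, rose by 0.72 ± 0.17 to 6.07 CPM, and MTPAP, the mitochondrial poly(A) polymerase, fell by 0.74 (± 0.10). PTCD2, another pentatricopeptide repeat protein, fell with CS2 by 0.65 (± 0.11, adjusted p = 5.72e-05) and rose with FB23-2 by 0.64 ± 0.11 (adjusted p = 4.50e-05). The compounds differed by 1.29 ± 0.11 for it, on means of 37 and 15.1 CPM. PRORP, the nuclease subunit of mitochondrial RNase P, was lower with both compounds (FB23-2 -0.70 ± 0.18, CS2 -0.89 ± 0.18). HSD17B10, another subunit of that enzyme, was also lower with both (FB23-2 -0.71 ± 0.10, CS2 -0.31 ± 0.10). MTERF3, a relative of MTERF1, rose with FB23-2 by 0.58 ± 0.11. The ribosome assembly factors ERAL1 (-0.83 ± 0.08) and DHX30 (-0.79 ± 0.08) were lower with FB23-2 than with CS2. Against DMSO, ERAL1 rose with CS2 (0.35 ± 0.08) and fell with FB23-2 (-0.48 ± 0.08). DHX30 likewise rose with CS2 (0.27 ± 0.08) and fell with FB23-2 (-0.52 ± 0.08).

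Of 20 genes of mitochondrial DNA upkeep, 5 rose and 4 fell with CS2 (45% called, against 49.7% of all genes). With FB23-2, 6 rose and 7 fell (65% called, against 52% of all genes), and 7 rose and 5 fell without FB23-2 replicate 2. POLG, the catalytic subunit of the mitochondrial DNA polymerase, rose with CS2 by 0.86 ± 0.09 to 87.3 CPM (adjusted p = 1.66e-07). POLG2, its accessory subunit, rose with FB23-2 by 0.73 ± 0.10 to 40.7 CPM (adjusted p = 4.05e-06). Between the compounds, POLG was lower with FB23-2 than with CS2 (-0.68 ± 0.09). SLC25A36, a mitochondrial pyrimidine nucleotide carrier, rose with FB23-2 by 0.83 ± 0.08 to 161 CPM, against 90.6 CPM with DMSO. The protease LONP1, which degrades TFAM, rose with FB23-2 by 0.60 ± 0.07 to 337 CPM and with CS2 by 0.60 ± 0.07 to 335 CPM, against 222 CPM with DMSO. RRM2B, a ribonucleotide reductase subunit, rose with FB23-2 by 0.81 ± 0.10 and with CS2 by 0.42 ± 0.10.

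Of 14 regulators of nuclear genes for mitochondria, 2 rose and 8 fell with CS2 (71.4% called, median log2 fold change -0.30), and 2 rose and 5 fell with FB23-2 (50% called, median -0.05). Of all genes 49.7% were called with CS2 (25.3% lower) and 52% with FB23-2 (26.7% lower). Leaving out FB23-2 replicate 2 gave 2 regulators higher and 6 lower with FB23-2. PPARGC1A, the coactivator PGC-1alpha, rose with FB23-2 by 2.14 ± 0.16 to 17.3 CPM and with CS2 by 1.22 ± 0.17 to 9.09 CPM, against 3.93 CPM with DMSO. Its relative PPARGC1B fell with CS2 by 1.32 (± 0.08) to 29.7 CPM, against 74.1 CPM with DMSO, and was 1.31 ± 0.08 higher with FB23-2 than with CS2. NRF1, YY1 and GABPA, named here because their motifs were searched, were lower with both compounds. NRF1 changed by -0.32 ± 0.09 with FB23-2 and -0.55 ± 0.09 with CS2, YY1 by -0.24 ± 0.07 with FB23-2 and -0.29 ± 0.07 with CS2, and GABPA by -0.33 ± 0.09 with FB23-2 and -0.31 ± 0.09 with CS2 (adjusted p of all at most 0.0095). Of the 3 genes whose promoters hold the NRF1 letters, POLRMT was lower and TFB1M higher with FB23-2 than with CS2, and TFAM did not pass.

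The RNAs these factors act on are given for orientation. Of the 13 mitochondrial mRNAs, 5 rose and 2 fell with FB23-2 (53.8% called, against 52% of all genes), and 2 rose and 7 fell with CS2 (69.2%, against 49.7%). Without FB23-2 replicate 2, an alternative chosen after seeing the data, 4 rose and 6 fell with FB23-2, and the median log2 fold change was -0.23 in place of 0.09. Summed, they reached 47400, 79600 and 48800 CPM with FB23-2, 41600, 45100 and 37000 with CS2 and 46500, 45100 and 42700 with DMSO. FB23-2 replicate 2 alone stood well above the rest. Between the compounds 8 of the 13 were higher and 1 lower with FB23-2 (69.2% called, against 59.6% of all genes), and 7 were higher and 1 lower without FB23-2 replicate 2. The largest of these differences were in MT-ND4L (1.72 ± 0.22, and 1.38 without that library) and MT-ND4 (1.67 ± 0.21, and 1.35). MT-ND1 was the one lower with FB23-2 than with CS2 (-0.88 ± 0.19, and -1.12), named here after its values were seen. MT-CYB was lower with both compounds than with DMSO (-1.02 ± 0.10 with FB23-2 and -2.09 ± 0.10 with CS2). Against DMSO, MT-CO3 fell with FB23-2 by 0.67 (± 0.11), while MT-CO2 rose by 1.04 ± 0.21 and MT-ND4 by 0.88 ± 0.21. With CS2, MT-CO3 also fell (-0.81 ± 0.11) and MT-CO2 also rose (0.84 ± 0.21), whereas MT-ND4 fell (-0.79 ± 0.21). The direct comparison of the compounds did not pass for MT-CO3 (0.14 ± 0.11) or MT-CO2 (0.20 ± 0.21). The FB23-2 values against DMSO became -1.13 for MT-CYB, -0.86 for MT-CO3, 0.74 for MT-CO2 and 0.56 for MT-ND4 without FB23-2 replicate 2. The mRNAs thus did not move as one, and their relation to LRPPRC was not tested. The ribosomal RNAs MT-RNR1 and MT-RNR2 summed to 18500, 35900 and 19000 CPM with FB23-2. With CS2 they summed to 35600 to 46900 CPM and with DMSO to 9070 to 10700. The libraries were made with an mRNA kit, so these counts may not follow the amount of ribosomal RNA. TFB1M, whose product methylates MT-RNR1, was lowest with CS2.

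**Figure D5:**
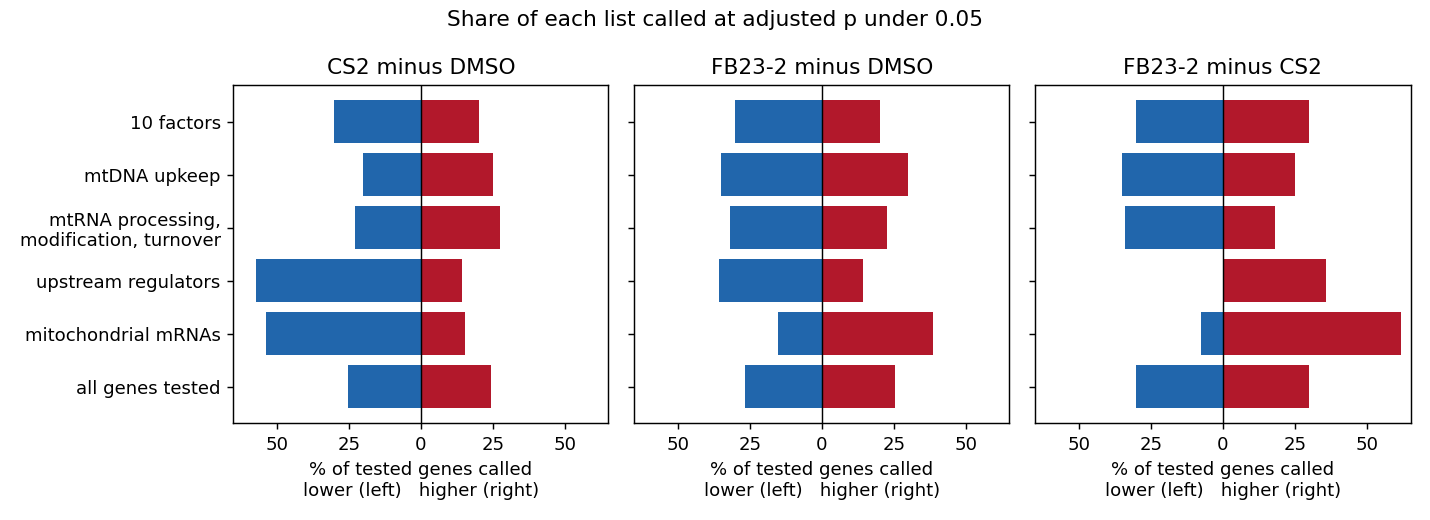
Share of each list's tested genes called lower (left) and higher (right) at an adjusted p under 0.05 in each comparison, with all 19781 genes at the bottom. The 10 factors, at 50%, 50% and 60% called, lie near the 49.7%, 52% and 59.6% of all genes.

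For each of the 10 genes, the genes with the most similar log2 CPM over the 9 libraries were sought among 10019 others with a mean of at least 10 CPM. The closest were ZWINT for POLRMT (Pearson r = 0.998), REXO5 for TFB1M (0.997), PSME4 and WDR17 for LRPPRC (0.995 each) and GPR153 for TEFM (0.988). SLIRP was most like EI24 (0.985), TFB2M like RASSF3 (0.982) and TFAM like API5 (0.978). For SUPV3L1 (RHEBP2, 0.967), PNPT1 (ZNF84, 0.962) and MTERF1 (SEC61B, 0.936) the likeness was weaker. The 9 libraries form 3 treatment groups and the highest of many values is taken, so these figures only describe which profiles look alike.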

How the data were processed

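Messenger RNA libraries of H69 cells were analysed in 9 columns, 3 each with FB23-2, CS2 and DMSO, matched to the labels by name (FB23 columns as FB23-2, which no other H69 treatment resembles). Per the labels' protocols, TRIzol RNA went into a Hieff NGS Ultima Dual-mode mRNA library kit. The table the authors deposited holds raw read counts by gene, and the submitters' processing notes name hg38. Aligner, counter, annotation and strandedness: not given in the sources used here. Counts of genes that overlap or have near-identical copies are therefore uncertain.

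The counts were fitted with edgeR 4.0.16 (R 4.3.3), using filterByExpr by group (minimum count 10, minimum total 15), TMM scaling and a robust quasi-likelihood fit of all 9 libraries with group means, because the groups are of 1 cell line and share an estimate of the spread. A gene was called where its Benjamini-Hochberg adjusted p, over 19781 genes, was under 0.05. The SE is the log2 fold change divided by the square root of F. Coordinates, exon lengths and GC content came from GENCODE 29 (58261 of 62754 IDs), computed in Python 3.11.15. All 10 genes are named. Of the other lists, the rule takes up to 4 called genes per comparison with the largest change and at least 5 CPM in a group. Not all genes that it takes are named in the text. The members and lists were chosen with earlier results of these data known.

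Alternatives were other scaling, filters and tests (DESeq2 1.42.0, limma-voom 3.58.1), fits of 2 groups only, a replicate block, a correction for GC content and span, and leaving out each library. No 2 libraries of a group agreed within counting error (the smallest chi-square per degree of freedom was 3.86), and each counts as a replicate. The series calls them biological replicates, and no source used here says that they came from separate cultures. The p-values measure the spread between them.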

Additional observations from a re-analysis of the deposited data

How the results depend on the processing

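Of the 16 calls made among the 10 genes over 3 comparisons, 11 held under all 20 alternatives. The other 5 were POLRMT and TFB1M with FB23-2, TFB2M with CS2, and PNPT1 and TEFM between the compounds. Under the GC and span correction, alone or with the replicate block, the genes higher with FB23-2 than with DMSO numbered 1 and those lower with FB23-2 than with CS2 numbered 5. This correction also removes any response that follows GC content or span. It turned the direction of PNPT1 (-0.08 against DMSO and -0.04 against CS2) and TFAM (-0.19) with FB23-2, and of MTERF1 (0.26) and SUPV3L1 (-0.05) with CS2, alone and with the block. The cause was not tested. None of these was called without the correction, apart from PNPT1 between the compounds. Without the filter on low counts TFAM with FB23-2 was 0 to 2 decimals. Leaving out 1 library gave -0.04 to 0.07 for TFAM with FB23-2, -0.02 to 0.25 for SLIRP with CS2 and -0.13 to 0.02 for MTERF1 between the compounds. Without that filter the calls of TFB2M with CS2 (-0.26) and PNPT1 between the compounds (0.19) were lost, and PNPT1 also in a fit of only those 2 groups (0.20). SUPV3L1 with FB23-2 passed under library size alone, without mitochondrial genes, with a 1 CPM filter, with DESeq2 and with the replicate block (0.22 to 0.24). Deviations from the group mean correlated at -0.03 to 0.167 between same-numbered libraries (over 0.1 in 2 of 9 pairs) and at -0.138 to 0.028 between others. Of the 9 libraries, 7 correlated best with one of their own number. Whether same-numbered libraries were handled together is not known, and the main fit does not pair them. The replicate block moved the calls over all genes to 5043 higher and 5228 lower with CS2 and to 5205 and 5493 with FB23-2. The ratios moved by less than the spread between replicates with a pseudocount of 0.5 and with each library left out, and no other alternative was run on them. Both depth (at least 275 counts for each of the 10 genes) and the 3 libraries per group limit these results.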
